A study of Mus musculus with 29 samples.

Results

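The comparison described here was between the RNA of rods and of *Nrl*-/- photoreceptors, which stand in for blue cones in this study and are called blue cones below. It comprised 6 of the 29 samples of the series, 3 libraries of each population, and every gene of the expression table was a member. The table lists 24062 genes, of which 6931 had no read in the 6 libraries, and the 14024 genes that passed a filter on low counts over all 15 RNA-seq libraries were tested. By their titles, the 6 libraries were analysed again from earlier work. Both populations came from the retinas of mice carrying the *Nrl*-eGFP transgene, in which the *Nrl* promoter drives GFP, at postnatal day 56 by the sample labels. Rods had the genotype *Nrl*-eGFP and blue cones the genotype *Nrl*-eGFP;*Nrl*KO. In both cases papain-dissociated cells were sorted once on GFP. The other RNA-seq libraries of the series, from sorted bipolar cells, entered the filter on low counts, the estimate of the spread between replicates and, as Pan-BC (all bipolar cells), a check of marker genes. Of the tested genes, 166 had no read in the 6 photoreceptor libraries and passed the filter through the bipolar libraries.

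NRL is a basic leucine zipper transcription factor that commits photoreceptor precursors to the rod fate, in part by switching on the nuclear receptor gene *Nr2e3*, whose product represses cone genes. Without NRL, the cells that would have become rods take on features of cones that express the short-wavelength opsin. Rods and cones detect light by the same chain of reactions (opsin, transducin, cGMP phosphodiesterase, cyclic nucleotide-gated channel) but build most of its steps from separate genes. Because the blue cones are cells of a mutant retina, they model blue cones and are not a sort of native ones, and the effect of cell type and that of the knockout cannot be told apart.

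Rod libraries held 18332615 to 20852758 counted reads and blue cone libraries 24174923 to 26266746. Values are read counts divided by 1 size factor per library, here called normalized counts, and limma was applied to their log2 values after 1 had been added, testing against a log2 fold change of 1. Fitted log2 fold changes are called log2 differences below, are positive where rods were higher, and are given ± their standard error (SE). Pearson correlations of log2 values across genes, which are not independent replicates, were 0.972 to 0.985 within a population and 0.868 to 0.89 between rod and blue cone libraries. Within a population, no pair of libraries agreed within counting noise, the closest being rod libraries 1 and 3 with a chi-square of 14.7 per gene. The labels number the replicates without saying whether they came from separate animals, so p-values measure a spread between samples and may not measure that between animals. SEs and p-values came from 1 model of all 15 RNA-seq libraries, so the bipolar libraries also set the spread at each gene. An SE is therefore not the spread of the 6 photoreceptor libraries printed beside it. Reads of *Xist* and of the 4 Y-linked genes examined were present in all 6 libraries. Of these 5 sex-linked genes, 0 were called by limma, edgeR or DESeq2 or had an unadjusted p below 0.05. With SEs of 1.331 to 1.482, limma could call them only at very large differences. *Ddx3y*, *Kdm5d* and *Eif2s3y* were higher in every rod library than in any blue cone library, and 60.9% of all tested genes showed no overlap. *Xist* and *Uty* overlapped, and the mix of sexes was not tested.

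The 4 genes that mark the populations separated the libraries without overlap, as did 60.9% of all tested genes. Among them, *Nrl* is the gene disrupted in the blue cones. *Nrl* had 11480, 16600 and 14470 normalized counts in rods and 657.3, 764.1 and 485.5 in blue cones (log2 difference of 4.49 ± 0.22 SE, limma adjusted p = 6.56e-10). Counting was by gene, so the remaining reads may include transcript outside the disrupted part, which was not tested. *Nr2e3*, the partner of *Nrl* in rod identity, had 24670, 39990 and 36500 in rods and 76.71, 78.92 and 48.85 in blue cones (log2 difference of 8.93 ± 0.26 SE, limma adjusted p = 1.61e-13). The short-wavelength opsin gene *Opn1sw* had 7389, 7590 and 7453 in rods and 1108000, 1302000 and 1256000 in blue cones (log2 difference of -7.35 ± 0.64 SE, limma adjusted p = 3.73e-07). Cone arrestin, *Arr3*, had 1249, 809.2 and 915.3 in rods and 94240, 88490 and 71840 in blue cones (log2 difference of -6.43 ± 0.56 SE, limma adjusted p = 4.1e-07). Both populations thus carried the markers of their labels, with each marker of the other population present at a lower level. In bulk samples, fewer cells of a type and less RNA per cell cannot be told apart, nor can a trace of the other population in a sort and low expression.

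Of the 14024 genes tested, 2231 (15.9%) were called at an adjusted p below 0.05. Blue cones had the larger share, with 1581 genes higher in blue cones (11.3% of tested genes) and 650 higher in rods (4.63%). Differences were also larger on the blue cone side, where the median log2 fold change of called genes was -3.17 against 2.41 for the genes higher in rods. A fitted difference of at least 16-fold was reached by 522 genes higher in blue cones and 116 higher in rods, and one of at least 64-fold by 150 and 36. The median over all tested genes was -0.005 on values that the size factors had already scaled between libraries. The libraries of rods and blue cones did not overlap at any of the 650 genes higher in rods or at 1579 of the 1581 higher in blue cones, whereas 60.9% of all tested genes showed no overlap. Among called genes, 19 higher in rods had no read in blue cones and 68 higher in blue cones had none in rods. Rod libraries held fewer counted reads than blue cone libraries, so a gene is left without a read more easily in rods. Long noncoding RNA genes made up 44 of the calls in rods and 51 of those in blue cones, out of 655 tested. Over all 14024 tested genes, 4.63% and 11.3% were called in these directions.

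**Figure D1:**
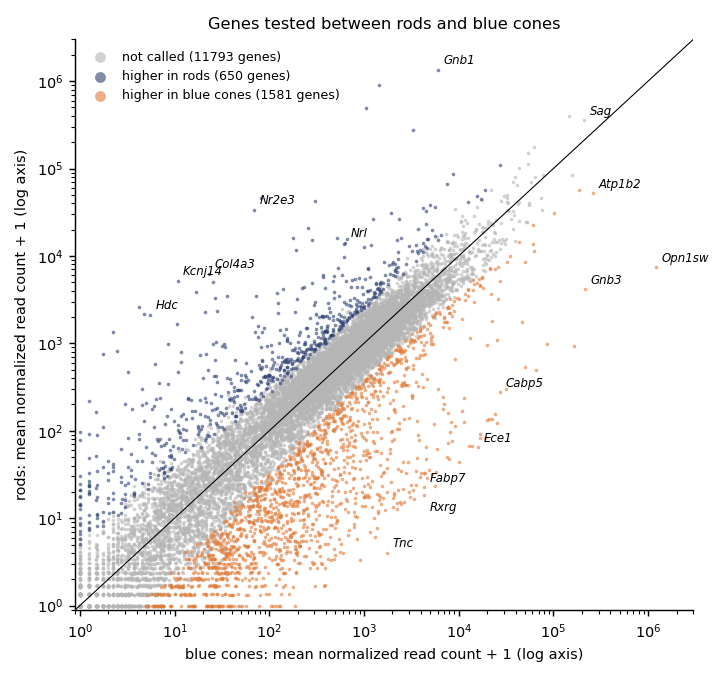
Mean normalized read count plus 1 of each of the 14024 tested genes in rods (vertical, log axis) against blue cones (horizontal, log axis), 3 libraries each, coloured by call, with the line of equality. The 1581 genes higher in blue cones spread farther from the line than the 650 higher in rods, and *Gnb1* and *Opn1sw* lie at the extremes.

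The rod forms of the light cascade were higher in rods for 8 of 11 genes, against 4.63% of all tested genes, none was higher in blue cones, and the median log2 fold change of the list was 6.39. Rod transducin alpha, *Gnat1*, which carries the light signal to phosphodiesterase, had 419700, 588400 and 488100 normalized counts in rods and 1233, 1109 and 785.3 in blue cones (log2 difference of 8.91 ± 0.20 SE, limma adjusted p = 6.9e-15). Its beta subunit gene *Gnb1* took the most reads in rods, with 1130000, 1618000 and 1295000, against 5836, 6332 and 5889 in blue cones (log2 difference of 7.79 ± 0.44 SE, limma adjusted p = 1.21e-09). Each of these genes was lower in rod library 1 than in rod libraries 2 and 3, and every rod library lay far above every blue cone library. The catalytic phosphodiesterase subunits differed from each other in size of change. *Pde6b* had 266900, 291300 and 267200 in rods and 3401, 3339 and 3087 in blue cones (log2 difference of 6.39 ± 0.19 SE, limma adjusted p = 2.86e-13). *Pde6a* had 30870, 40100 and 35250 in rods and kept 4443, 4298 and 3713 in blue cones (log2 difference of 3.09 ± 0.33 SE, limma adjusted p = 6.15e-05). The rod channel subunits *Cnga1* (log2 difference 9.19, limma adjusted p = 4.78e-15) and *Cngb1* (log2 difference 6.37, limma adjusted p = 8.48e-12) and the rod exchanger *Slc24a1*, which removes calcium from the outer segment (log2 difference 7.12, limma adjusted p = 9.64e-13), were higher in rods as well. About 30.4% of the exon bases of *Pde6b* also belong to *Gm34204* on the other strand, and the library kit named in the labels does not mark strand, so reads of the pair cannot be told apart.

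Of the rod forms, 3 did not pass the test. Rod arrestin, *Sag*, which ends signalling by the photopigment, had 357100, 390700 and 323600 normalized counts in rods and 160700, 225800 and 252600 in blue cones (log2 difference of 0.77 ± 0.47 SE, limma adjusted p = 1). The small transducin gamma gene *Gngt1* had 65570, 99130 and 73480 in rods and 35840, 39580 and 41890 in blue cones (log2 difference of 1.00 ± 0.18 SE, limma adjusted p = 1), and the inhibitory phosphodiesterase subunit gene *Pde6g* had 87360, 124300 and 95930 in rods and 40420, 44520 and 44610 in blue cones (log2 difference of 1.23 ± 0.34 SE, limma adjusted p = 0.924). Rod libraries lay above blue cone libraries at all 3 genes, and 60.9% of all tested genes showed no overlap in either direction. In a test against a fold change of 0 in place of 1, the adjusted p was 0.00014 for *Gngt1* and 0.00522 for *Pde6g*. *Sag* did not pass under any alternative, with adjusted p from 0.174 to 1. In blue cones *Sag* was among the 10 genes with the most reads.

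The cone forms were higher in blue cones for all 11 genes, against 11.3% of all tested genes, with a median log2 fold change of -7.06 and differences of -5.71 (*Gnb3*) to -7.73 (*Cngb3*). Cone transducin alpha, *Gnat2*, had 878.1, 967 and 966.1 normalized counts in rods and 143500, 161900 and 184500 in blue cones (log2 difference of -7.44 ± 0.15 SE, limma adjusted p = 3.07e-15). The beta subunit *Gnb3* had 3341, 4433 and 4699 in rods and 218400, 218300 and 209500 in blue cones (log2 difference of -5.71 ± 0.23 SE, limma adjusted p = 2.28e-11). The gamma subunit *Gngt2* had 111.6, 140.3 and 154.5 in rods and 18240, 19600 and 29620 in blue cones (log2 difference of -7.34 ± 0.18 SE, limma adjusted p = 2.46e-14), with 16.1% of its exon bases shared with *Abi3* on the other strand. No cone form overlapped between the populations, and 60.9% of all tested genes did not. Cone phosphodiesterase, *Pde6c*, had 458.9, 497.8 and 530.6 in rods and 67870, 68110 and 62610 in blue cones (log2 difference of -7.06 ± 0.57 SE, limma adjusted p = 1.64e-07). Its inhibitory subunit *Pde6h* (log2 difference -6.69, limma adjusted p = 1.12e-06), the channel subunits *Cnga3* (log2 difference -7.24, limma adjusted p = 1.08e-05) and *Cngb3* (log2 difference -7.73, limma adjusted p = 1.8e-15) and the cone exchanger *Slc24a2* (log2 difference -7.00, limma adjusted p = 2.69e-14) were higher in blue cones as well. The medium-wavelength opsin *Opn1mw* had 490.9, 572.6 and 528.4 in rods and 41110, 50460 and 58220 in blue cones (log2 difference of -6.54 ± 0.30 SE, limma adjusted p = 8.69e-11), so the blue cone libraries held reads of both cone opsins. Across the 11 cone genes, the rod mean was 0.477% to 1.93% of the blue cone mean, with a median of 0.746%. These shares were alike in the 3 rod libraries, whose medians over the list were 0.693%, 0.791% and 0.758% of the blue cone mean.

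**Figure D2:**
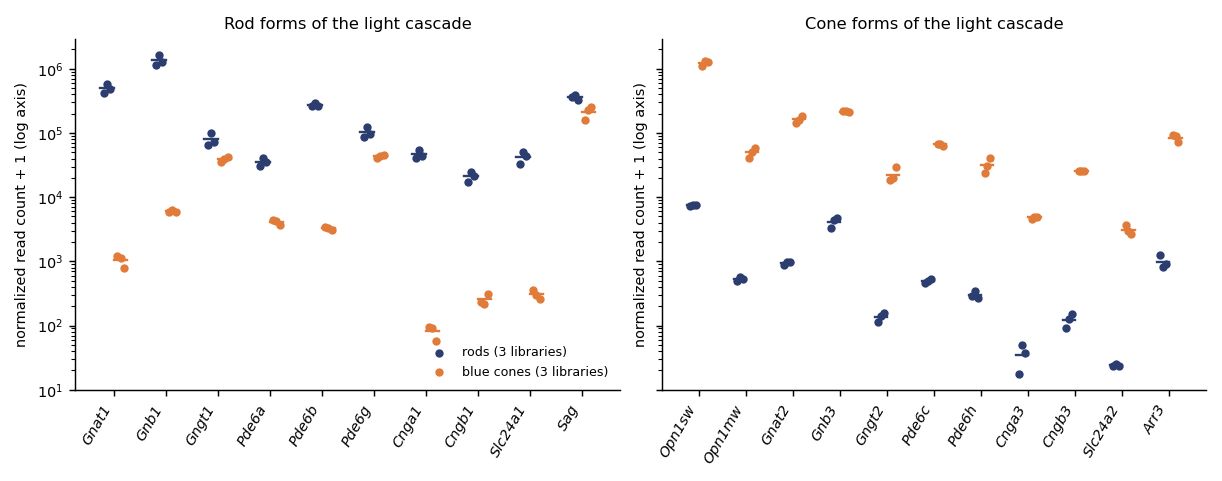
Normalized read count plus 1 (log axis) of 10 rod forms (left) and 11 cone forms (right) of the light cascade in 3 rod and 3 blue cone libraries, with points for libraries and short lines for means. All 11 cone forms lie above rods in blue cones, and of the rod forms *Gngt1*, *Pde6g* and *Sag* show the smallest gaps.

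Taken as shares of all counted reads, the 11 rod forms held 16.9% to 20.4% of the reads of a rod library and 1.4% to 1.82% of those of a blue cone library. The 11 cone forms held 9.62% to 10.3% of the reads of a blue cone library and 0.0728% to 0.0794% of those of a rod library. *Gnb1* alone took 6.13% to 7.57% of the reads in rods, and *Opn1sw* 6.1% to 6.77% of those in blue cones.

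Setting each rod form against its cone counterpart, per kilobase of exon, gave the makeup of each step. In rods the rod form made up at least 98.97% of each of the 9 pairs of cascade genes given here, in every library. In blue cones the rod form made up a mean of 0.553% of the *Gnat1* and *Gnat2* pair, 0.66% of *Cngb1* and *Cngb3*, 1.58% of *Gnb1* and *Gnb3*, 2.22% of *Cnga1* and *Cnga3*, 4.95% of *Pde6b* and *Pde6c* and 17% of *Slc24a1* and *Slc24a2*. The rod form was near the level of the cone form at 3 steps of blue cones. *Gngt1* was 46.5%, 47.2% and 38.5% of the gamma subunit pair in the 3 blue cone libraries, and *Pde6g* was 46.4%, 42.5% and 35.8% of the inhibitory subunit pair. *Sag* was 51.8%, 61.6% and 68.9% of the arrestin pair. Blue cones thus held RNA for both forms of the transducin gamma subunit, the phosphodiesterase inhibitor and arrestin. These shares rest on the summed exon lengths of all annotated isoforms and were not tested.

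Of 14 cascade genes that both cell types use, 3 were higher in rods (21.4%, against 4.63% of all tested genes), 2 were higher in blue cones (14.3%, against 11.3%) and 9 did not pass, with a median log2 fold change of 1.01. Guanylate cyclase *Gucy2f*, which restores cGMP after light, had 4428, 5218 and 5472 normalized counts in rods and 30.84, 28.84 and 13.32 in blue cones (log2 difference of 7.72 ± 0.35 SE, limma adjusted p = 7.14e-11). The other cyclase gene, *Gucy2e*, had 7710, 8004 and 8415 in rods and 4620, 4157 and 3699 in blue cones (log2 difference of 0.96 ± 0.12 SE, limma adjusted p = 1). Of the calcium sensors that activate the cyclases, *Guca1b* had 77900, 91980 and 88110 in rods and 8075, 10030 and 7795 in blue cones (log2 difference of 3.32 ± 0.70 SE, limma adjusted p = 0.0163), while *Guca1a* had 43210, 42100 and 40470 in rods and 25550, 31260 and 40360 in blue cones (log2 difference of 0.40 ± 0.59 SE, limma adjusted p = 1). The lowest rod library of *Guca1a* and the highest blue cone library were nearly equal. *Rgs9bp*, the anchor of the complex that switches transducin off, was higher in rods (log2 difference 1.76, limma adjusted p = 0.00252), and its partners *Rgs9* (log2 difference 0.81, limma adjusted p = 1) and *Gnb5* (log2 difference 1.19, limma adjusted p = 0.369) did not pass. The opsin kinase gene *Grk1* had 32880, 35260 and 34200 in rods and 10130, 8541 and 8478 in blue cones (log2 difference of 1.92 ± 0.45 SE, limma adjusted p = 0.154). *Grk1* passed when the 6 photoreceptor libraries were fitted without the bipolar libraries (limma adjusted p = 0.0018) and with edgeR on recovered reads (adjusted p = 0.0202). Recoverin (*Rcvrn*, log2 difference 1.34), phosducin (*Pdc*, log2 difference 1.07), *Unc119* (log2 difference 0.14) and *Rd3* (log2 difference -0.97) did not pass. Higher in blue cones was *Pde6d*, a carrier of prenylated outer segment proteins, with 1277, 1784 and 1837 in rods and 3746, 4925 and 6370 in blue cones (log2 difference -1.60, limma adjusted p = 0.0107). The call of *Pde6d* was lost in the fit of the 6 photoreceptor libraries alone and without rod library 1 or blue cone library 3 (limma adjusted p = 0.0755 to 0.0769).

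Among 34 tested transcription factor genes of photoreceptors, 7 were higher in rods (20.6%, against 4.63% of all tested genes), 7 were higher in blue cones (20.6%, against 11.3%) and 20 were not called. Besides *Nrl* and *Nr2e3*, *Samd11* had 17660, 14120 and 16440 normalized counts in rods and 634, 503.9 and 422.6 in blue cones (log2 difference of 4.96 ± 0.37 SE, limma adjusted p = 1.45e-07), and its relative *Samd7* 8108, 8240 and 7470 in rods and 1982, 1802 and 1671 in blue cones (log2 difference of 2.13 ± 0.32 SE, limma adjusted p = 0.0102). Both encode retinal components of a Polycomb silencing complex. *Mef2c* had 12750, 14710 and 13220 in rods and 674.6, 588.1 and 572.1 in blue cones (log2 difference of 4.47 ± 0.12 SE, limma adjusted p = 4.18e-13), whereas its relative *Mef2d* had 2946, 3114 and 3462 in rods and 3020, 3164 and 3109 in blue cones (log2 difference 0.03). The orphan nuclear receptor gene *Esrrb* had 4619, 5543 and 4431 in rods and 282.8, 328.6 and 225 in blue cones (log2 difference of 4.13 ± 0.29 SE, limma adjusted p = 1.35e-07). *Rorb*, a nuclear receptor gene upstream of *Nrl*, was higher in rods with a smaller difference (log2 difference 1.63, limma adjusted p = 0.0096).

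On the blue cone side, *Rxrg*, a retinoid X receptor gene that helps set opsin choice in cones, had 13.58, 16.39 and 22.69 normalized counts in rods and 4179, 4430 and 4260 in blue cones (log2 difference of -7.88 ± 0.75 SE, limma adjusted p = 8.6e-07). *Sall3*, a zinc finger gene tied to short-wavelength cones, had 17.46, 6.146 and 7.565 in rods and 1618, 1372 and 1267 in blue cones (log2 difference of -7.08 ± 0.30 SE, limma adjusted p = 3.14e-11). The homeobox genes *Lhx4* (17.46, 16.39 and 24.86 in rods, 561.1, 538.8 and 511.4 in blue cones, log2 difference -4.73, limma adjusted p = 8.94e-11) and *Six3* (log2 difference -3.79, limma adjusted p = 1.11e-07) followed, then *Isl2*, *Onecut2* and *Nr2f2* with log2 differences of -3.38, -2.66 and -1.44. In place of 7, the list had 5 or 6 genes higher in blue cones when any 1 library was left out and 4 with DESeq2. *Isl2* and *Onecut2* had low counts in all 6 libraries. *Onecut2* had 1.94, 3.073 and 2.161 in rods and 49.64, 12.9 and 12.58 in blue cones, and *Isl2* 1.94, 0 and 2.161 in rods and 17.3, 18.97 and 27.39 in blue cones. *Thrb*, the thyroid hormone receptor gene of medium-wavelength cones, had 6276, 5790 and 6526 in rods and 11920, 10300 and 9546 in blue cones and did not pass (log2 difference of -0.77 ± 0.17 SE, limma adjusted p = 1). The factors that both cell types share had similar counts: *Otx2* 6796, 7638 and 7173 in rods and 6538, 7420 and 7143 in blue cones, *Neurod1* 40000, 45280 and 40560 in rods and 44650, 44750 and 41050 in blue cones, and *Crx* 60820, 71610 and 62280 in rods and 39870, 43790 and 40570 in blue cones (log2 differences 0.04, -0.05 and 0.65). A call was not reached for these 3, and the rod and blue cone libraries of *Otx2* and *Neurod1* overlapped. Those of *Crx* did not, as at 60.9% of all tested genes.

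**Figure D3:**
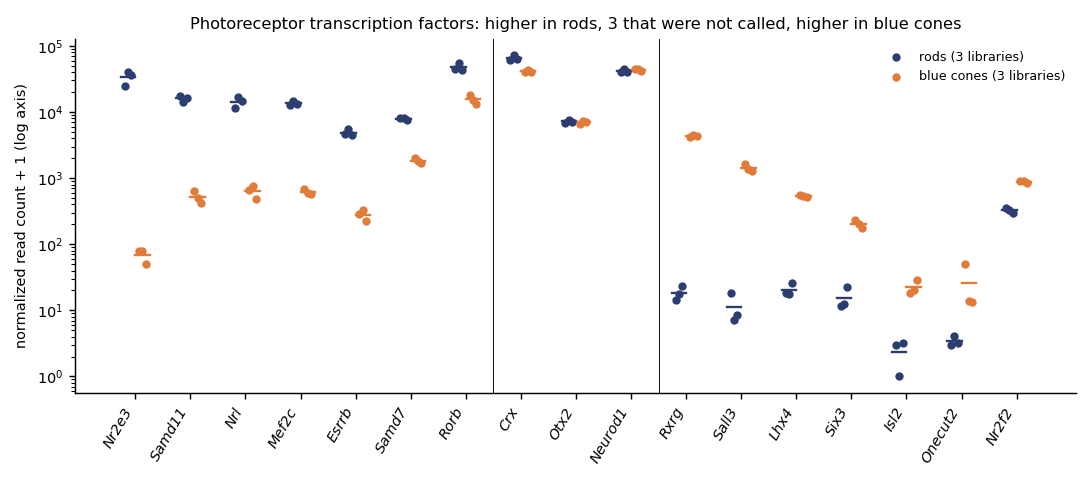
Normalized read count plus 1 (log axis) of the 14 called photoreceptor transcription factor genes and of *Crx*, *Otx2* and *Neurod1* in 3 rod and 3 blue cone libraries (points, with lines for means). The called genes separate in every library, by 495-fold in means at *Nr2e3*, while *Otx2* and *Neurod1* overlap.

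Structural genes of the outer segment, the stack of membranes that holds the photopigment, were called for 7 of 22 tested genes, 5 higher in rods (22.7%, against 4.63% of all tested genes) and 2 higher in blue cones (9.09%, against 11.3%). *Fscn2*, an actin bundler, had 13480, 17150 and 15680 normalized counts in rods and 542.3, 739.8 and 713.5 in blue cones (log2 difference of 4.54 ± 0.32 SE, limma adjusted p = 9.89e-08), and *Reep6*, which acts in membrane transport in rods, had 24490, 27760 and 27610 in rods and 1172, 1296 and 1276 in blue cones (log2 difference of 4.41 ± 0.19 SE, limma adjusted p = 1.49e-10). *Rp1*, a microtubule protein of the axoneme (log2 difference 3.14, limma adjusted p = 0.000783), the disc rim gene *Rom1* (log2 difference 2.02, limma adjusted p = 0.000143) and the flippase gene *Atp8a2* (log2 difference 1.67, limma adjusted p = 0.000193) were also higher in rods. Peripherin, *Prph2*, the partner of *Rom1* at disc rims, had 153400, 200800 and 173500 in rods and 54840, 65150 and 67370 in blue cones and was not called (log2 difference of 1.49 ± 0.40 SE, limma adjusted p = 0.514). The matrix retinoid carrier *Rbp3* had 47430, 62610 and 60080 in rods and 181500, 182400 and 194500 in blue cones (log2 difference of -1.72 ± 0.16 SE, limma adjusted p = 0.00196). *Cdhr1*, a cadherin at the base of the outer segment, was also higher in blue cones (log2 difference -1.44, limma adjusted p = 0.0487). The calls of *Rbp3* and *Cdhr1* were lost in the 6 libraries alone, and that of *Cdhr1* also without rod library 1 or 3 or blue cone library 1, 2 or 3 (limma adjusted p = 0.0501 to 0.298). Of 17 tested retinoid-handling genes, 2 were higher in rods (11.8%, against 4.63% of all tested genes) and 2 in blue cones (11.8%, against 11.3%). Higher in rods were *Rdh12*, which reduces all-trans-retinal (21690, 24960 and 22620 in rods, 3618, 4860 and 5084 in blue cones, log2 difference 2.37, limma adjusted p = 1.63e-06), and *Dhrs3* (log2 difference 2.85, limma adjusted p = 7.6e-08). In blue cones *Rbp4* had 106, 125.2 and 161.4 against a single read in the 3 rod libraries (limma adjusted p = 2.36e-06), and *Rdh10* was higher as well (log2 difference -1.97, limma adjusted p = 0.0184), a call lost without rod library 2 or blue cone library 1 or 2 (limma adjusted p = 0.0557 to 0.066).

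Of 38 tested synaptic genes, 1 was higher in rods (2.63%, against 4.63% of all tested genes), 7 were higher in blue cones (18.4%, against 11.3%) and 30 were not called. The neurexin gene *Nrxn3*, a presynaptic adhesion molecule, had 95.08, 125 and 151.3 normalized counts in rods and 10520, 7175 and 7126 in blue cones (log2 difference of -6.05 ± 0.18 SE, limma adjusted p = 4.26e-13). *Elfn2*, a postsynaptic partner of metabotropic glutamate receptors in other neurons, had 2.911, 9.219 and 9.726 in rods and 479.8, 480.3 and 417.4 in blue cones (log2 difference of -5.93 ± 0.29 SE, limma adjusted p = 3.6e-10). Its relative *Elfn1*, which joins rods to ON bipolar cells, had 705.4, 623.8 and 773.8 in rods and 546, 651.1 and 414.5 in blue cones and did not pass (log2 difference of 0.40 ± 0.76 SE, limma adjusted p = 1), so that *Elfn1* made up 99.3% of the pair per kilobase of exon in rods and 61.8% in blue cones. Complexin 3, *Cplx3*, which tunes release at ribbon synapses, had 853.8, 1243 and 1171 in rods and 21400, 26460 and 28700 in blue cones (log2 difference of -4.56 ± 0.18 SE, limma adjusted p = 3.89e-11), beside *Cplx4* with 62100, 78570 and 68590 in rods and 53420, 62880 and 56340 in blue cones (log2 difference 0.27). *Lrfn2* (log2 difference -3.70, limma adjusted p = 8.7e-08), the glutamate transporter *Slc1a2* (log2 difference -1.90, limma adjusted p = 1.48e-05) and *Lrit1* (log2 difference -2.04, limma adjusted p = 3.02e-05) were higher in blue cones as well. The calcium channel beta subunit *Cacnb2* was higher in rods (836.3, 1067 and 1015 in rods against 282, 226.9 and 208.7 in blue cones, log2 difference 2.02, limma adjusted p = 8.74e-06). The channel's pore subunit *Cacna1f* and the ribbon protein gene *Ctbp2* did not pass, with log2 differences of 0.79 and -0.91.

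Of 26 tested channel and pump genes, 2 were higher in rods and 4 in blue cones (7.69% and 15.4%, against 4.63% and 11.3% of all tested genes). *Kcnj14*, an inwardly rectifying potassium channel, had 4747, 5225 and 5641 normalized counts in rods and 10.53, 13.66 and 5.181 in blue cones (log2 difference of 9.0 ± 0.28 SE, limma adjusted p = 2.86e-13). *Kcnv2*, a modifier of the inner segment potassium current, was not called (log2 difference 1.23, limma adjusted p = 0.787). The sodium pump beta subunit *Atp1b2* had 39350, 60680 and 56940 in rods and 236400, 282700 and 271900 in blue cones (log2 difference of -2.35 ± 0.23 SE, limma adjusted p = 0.000142). The calcium-activated potassium channel *Kcnma1* had 51.42, 46.1 and 99.42 in rods and 779.9, 635.9 and 854.1 in blue cones (log2 difference of -3.58 ± 0.22 SE, limma adjusted p = 5.12e-08). *Atp2b4* and *Kcnc2* were higher in blue cones at low counts of 21.06, 22.76 and 22.2 and 12.03, 2.276 and 10.36. The call of *Kcnc2* was lost in the 6 photoreceptor libraries alone (limma adjusted p = 0.0511). *Kcnc2* had no read in rods, and its blue cone mean was at least 8.02-fold above the floor of 3 reads over the 3 libraries.

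Enzymes of glucose use were called for 9 of 37 tested genes, 4 higher in rods and 5 in blue cones (10.8% and 13.5%, against 4.63% and 11.3% of all tested genes), and isozymes of the phosphofructokinase step differed in direction. The phosphofructokinase *Pfkp* had 10260, 12910 and 9723 normalized counts in rods and 2159, 2213 and 2413 in blue cones (log2 difference of 2.27 ± 0.11 SE, limma adjusted p = 8.05e-08), and *Pfkm* had 398.8, 345.2 and 332.8 in rods and 2092, 1991 and 2105 in blue cones (log2 difference of -2.52 ± 0.10 SE, limma adjusted p = 2.16e-09), while *Pfkl* did not pass (log2 difference 0.44). Glycogen phosphorylase *Pygm* had 1008, 879.9 and 967.2 in rods and 19100, 21450 and 18600 in blue cones (log2 difference of -4.37 ± 0.12 SE, limma adjusted p = 2.86e-13), with *Pygl* also higher in blue cones (log2 difference -3.17, limma adjusted p = 1.03e-06) and *Pygb* at a log2 difference of 0.01. Creatine kinase *Ckb* had 10790, 12200 and 10800 in rods and 50490, 61820 and 73740 in blue cones (log2 difference of -2.45 ± 0.21 SE, limma adjusted p = 2.08e-05). In rods, *Pdk1*, which holds back pyruvate oxidation (log2 difference 2.96, limma adjusted p = 1.21e-06), *Eno1* (log2 difference 2.7, limma adjusted p = 0.000846) and the lactate exporter *Slc16a3* (log2 difference 1.76, limma adjusted p = 0.0341) were higher. The lactate and pyruvate transporter *Slc16a7* was higher in blue cones (log2 difference -2.34, limma adjusted p = 0.0227). Both transporter calls were lost in the 6 photoreceptor libraries alone (limma adjusted p = 0.16 and 0.244). The call of *Slc16a3* was also lost without rod library 1 or 2 or blue cone library 1 or 2 (limma adjusted p = 0.0527 to 0.178), and that of *Slc16a7* without rod library 2 or blue cone library 2 (limma adjusted p = 0.0819 to 0.0821). *Eno1* has near-identical copies elsewhere in the genome that can take its reads, so its value is uncertain. The hexokinase *Hk2* (log2 difference -0.84), *Pkm* (log2 difference 0.09) and *Ldha* (log2 difference 0.27) did not pass.

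In lipid metabolism 5 of 37 tested genes were higher in rods and 6 in blue cones (13.5% and 16.2%, against 4.63% and 11.3% of all tested genes). Fatty acid elongases accounted for 3 of the latter. *Elovl5* had 28.14, 33.8 and 68.08 normalized counts in rods and 2399, 3062 and 3251 in blue cones (log2 difference of -6.13 ± 0.24 SE, limma adjusted p = 1.37e-11), *Elovl6* had 69.86, 88.1 and 105.9 in rods and 3953, 3920 and 3417 in blue cones (log2 difference of -5.42 ± 0.13 SE, limma adjusted p = 3.13e-14), and *Elovl2* had 6867, 8679 and 9708 in rods and 48840, 54020 and 47280 in blue cones (log2 difference of -2.58 ± 0.36 SE, limma adjusted p = 0.00207). *Elovl4*, which makes very long chain fatty acids of photoreceptor membranes, did not pass (log2 difference 0.61). The fatty acid binding protein gene *Fabp7* had 15.52, 31.76 and 17.29 in rods and 3666, 4610 and 4695 in blue cones (log2 difference of -7.64 ± 0.70 SE, limma adjusted p = 6.15e-07), beside *Fabp12* with 9095, 11560 and 12080 in rods and 10090, 9101 and 9193 in blue cones (log2 difference 0.20). *Acsl3* (log2 difference -1.84, limma adjusted p = 0.00158) and *Cpt1c* (log2 difference -1.78, limma adjusted p = 0.0341) were also higher in blue cones. Higher in rods were *Ppargc1b*, a coactivator of mitochondrial genes (3117, 2723 and 2967 in rods, 366.3, 244.3 and 299.8 in blue cones, log2 difference 3.29, limma adjusted p = 1.45e-10), *Agpat3* (log2 difference 1.70, limma adjusted p = 3.71e-05), *Ppard* (log2 difference 1.70, limma adjusted p = 0.0158), *Acadvl* (log2 difference 1.33, limma adjusted p = 0.0336) and *Cd36*, which had 2.911, 9.219 and 6.484 in rods and no read in blue cones. Among these, the call of *Acadvl* was lost without rod library 1 or 3 or blue cone library 2 or 3 (limma adjusted p = 0.0522 to 0.133), that of *Cd36* without rod library 2 or 3 or blue cone library 1, 2 or 3 (limma adjusted p = 0.0702 to 0.161) and that of *Ppard* without rod library 3 (limma adjusted p = 0.0652).

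**Figure D4:**
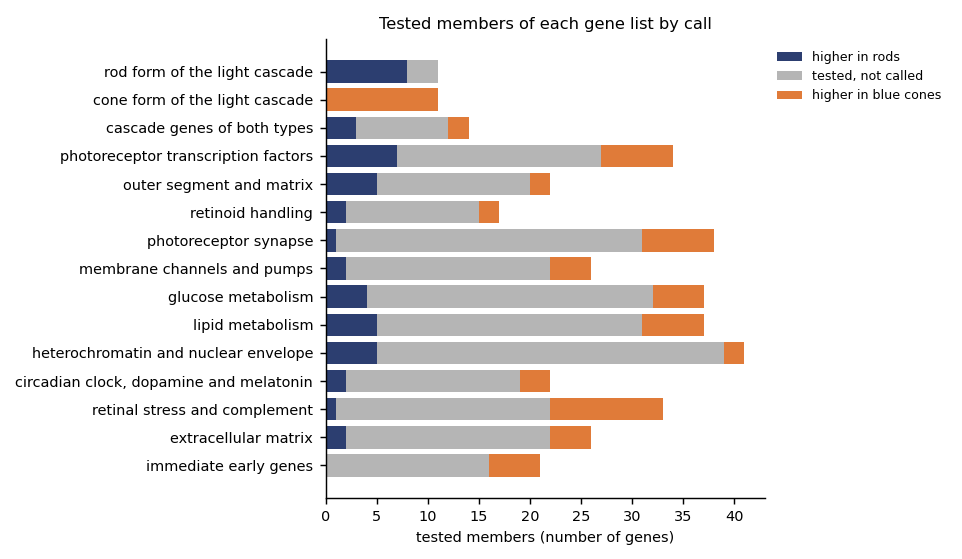
Number of tested members of 15 gene lists that were higher in rods, not called, or higher in blue cones. The rod and cone forms of the light cascade go to opposite sides (8 of 11 and 11 of 11), the retinal stress list has 11 of its 12 calls in blue cones, and most members of the other lists were not called.

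Rod nuclei in the mouse pack heterochromatin in their centre, so genes of heterochromatin and the nuclear envelope were examined. Of 41 tested, 5 were higher in rods and 2 in blue cones (12.2% and 4.88%, against 4.63% and 11.3% of all tested genes), with a median log2 fold change of 0.40. Lamin A/C, *Lmna*, which ties heterochromatin to the envelope, had 4.851, 2.049 and 4.323 normalized counts in rods and 118.1, 157.8 and 150.2 in blue cones (log2 difference of -4.96 ± 0.26 SE, limma adjusted p = 1.2e-09). The lamin B receptor *Lbr*, the other tether, had 1833, 1869 and 2049 in rods and 1584, 1612 and 1392 in blue cones (log2 difference 0.33). *Lmnb1* was higher in rods at 150.4, 158.8 and 123.2 in rods against 31.59, 17.45 and 16.28 in blue cones (log2 difference 2.73, limma adjusted p = 0.000212). The enzymes that oxidize methylated cytosine split, with *Tet3* higher in rods (4330, 4188 and 4566 in rods against 1079, 774.8 and 678 in blue cones, log2 difference 2.40, limma adjusted p = 2.98e-07), *Tet1* higher in blue cones (23.29, 19.46 and 20.53 in rods against 452, 292.1 and 210.9 in blue cones, log2 difference -3.79, limma adjusted p = 7.7e-08) and *Tet2* not called (log2 difference 0.43). *Syne1* (log2 difference 1.85, limma adjusted p = 0.00149), *Suv39h2* (log2 difference 2.06, limma adjusted p = 0.0363) and *Dnmt3b* (log2 difference 1.82, limma adjusted p = 0.0462) were the other genes higher in rods. The call of *Suv39h2* was lost without any 1 of the 6 libraries (adjusted p = 0.0562 to 0.089), and that of *Dnmt3b* without rod library 1, 2 or 3 or blue cone library 2 or 3 (limma adjusted p = 0.0569 to 0.278) and in the 6 photoreceptor libraries alone (limma adjusted p = 0.163). In addition, 23.8% of the exon bases of *Suv39h2* are shared with *Dclre1c* on the other strand.

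Of 22 tested genes of the clock and of dopamine, histamine and melatonin signalling, 2 were higher in rods and 3 in blue cones (9.09% and 13.6%, against 4.63% and 11.3% of all tested genes). Histidine decarboxylase, *Hdc*, which makes histamine, had 2298, 2035 and 2064 normalized counts in rods and 7.521, 3.035 and 2.961 in blue cones (log2 difference of 8.69 ± 0.59 SE, limma adjusted p = 9.98e-09). The dopamine receptor *Drd4* had 3747, 4219 and 3885 in rods and 984.5, 1037 and 1232 in blue cones (log2 difference of 1.87 ± 0.30 SE, limma adjusted p = 0.0367), a call lost without rod library 1, 2 or 3 or blue cone library 1 or 2 (limma adjusted p = 0.0711 to 0.107). The melatonin receptor *Mtnr1a* had no read in the rod libraries and 35.35, 40.98 and 39.23 in blue cones, at least 37.6-fold above the floor of 3 reads over the 3 rod libraries (limma adjusted p = 6.48e-06). The clock output genes *Dbp* (32.99, 31.76 and 21.61 in rods against 93.26, 97.89 and 173.2 in blue cones, log2 difference -2.0, limma adjusted p = 0.00128) and *Tef* (log2 difference -1.68, limma adjusted p = 5.73e-05) were higher in blue cones. The call of *Dbp* was lost in the 6 photoreceptor libraries alone (limma adjusted p = 0.0845). The core genes *Clock* (log2 difference 1.18), *Arntl* (log2 difference 1.13), *Per2* (log2 difference -1.05) and *Cry2* (log2 difference -1.07) did not pass.

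Of 33 tested genes of retinal stress, complement and antigen presentation, 1 was higher in rods (3.03%, against 4.63% of all tested genes) and 11 were higher in blue cones (33.3%, against 11.3%), with a median log2 fold change of -0.91. *Socs3*, a feedback inhibitor of cytokine signalling, had 7.762, 4.097 and 23.77 normalized counts in rods and 750.6, 585.8 and 535.9 in blue cones (log2 difference of -5.90 ± 0.66 SE, limma adjusted p = 1.14e-05). *Stat3* (log2 difference -1.63, limma adjusted p = 0.000402) was higher in blue cones by less, and *Irf7* was higher in rods (log2 difference 2.21, limma adjusted p = 0.0258), a call lost without rod library 2 or 3 or blue cone library 1, 2 or 3 (limma adjusted p = 0.0519 to 0.0794). The MHC class I genes *H2-K1* (51.42, 47.12 and 49.71 in rods against 1082, 1245 and 1137 in blue cones, log2 difference -4.52, limma adjusted p = 2.7e-10) and *H2-D1* (log2 difference -3.71, limma adjusted p = 1.3e-09), the peptide transporter *Tap1* (limma adjusted p = 1.1e-05) and *B2m* (log2 difference -2.78, limma adjusted p = 0.00199) were higher in blue cones. These class I genes resemble each other and may share reads. *Chac1* (3.881, 2.049 and 3.242 in rods against 144.4, 267.1 and 173.9 in blue cones, log2 difference -5.57, limma adjusted p = 4.33e-07), *A2m* (log2 difference -3.68, limma adjusted p = 9.28e-06) and *Irf1* (log2 difference -2.39, limma adjusted p = 0.0279) were also higher in blue cones. Other members known from stressed retinas did not pass, among them *Gfap* (20.37, 12.29 and 19.45 in rods, 0, 37.94 and 6.661 in blue cones), *Edn2* (193.1, 162.9 and 224.8 in rods and 38.36, 37.94 and 45.89 in blue cones) and *Ddit3* (534.6, 630 and 526.3 in rods and 954.4, 1361 and 1485 in blue cones). Microglial markers were higher in the same direction, where called. Of these, 4 of 10 tested were higher in blue cones (40%, against 11.3% of all tested genes), namely *C1qb*, *C1qc*, *Tmem119* and *Cd68*. The summed normalized count of the 12 markers was 289.1 to 355.5 in rods and 779.2 to 1928 in blue cones. The marker *Ptprc* was at 0 in 2 of the 3 rod libraries, *C1qc* and *Tmem119* were at 0 in 1 rod library each, and no marker was at 0 in a blue cone library. The call of *Tmem119* was lost without rod library 2 or 3 or blue cone library 2 or 3 (limma adjusted p = 0.0512 to 0.105), and that of *Cd68* without rod library 2 or blue cone library 3 (limma adjusted p = 0.0644 to 0.0701) and in the 6 photoreceptor libraries alone (limma adjusted p = 0.0928). The part of microglia in the stress list was not tested.

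Of 26 tested matrix genes, 2 were higher in rods and 4 in blue cones (7.69% and 15.4%, against 4.63% and 11.3% of all tested genes). The basement membrane collagen *Col4a3* had 6754, 5836 and 6159 normalized counts in rods and 15.79, 24.28 and 25.91 in blue cones (log2 difference of 8.11 ± 0.56 SE, limma adjusted p = 1.48e-08), and its neighbour in the same collagen network, *Col4a4*, 273.6, 160.8 and 172.9 in rods and 1.504, 3.035 and 1.48 in blue cones (log2 difference of 6.08 ± 0.57 SE, limma adjusted p = 1.2e-06). Tenascin C, *Tnc*, had 4.851, 1.024 and 3.242 in rods and 1889, 1850 and 1528 in blue cones (log2 difference of -8.89 ± 0.41 SE, limma adjusted p = 6.32e-11). *Spp1* had no read in rods and 67.69, 40.98 and 245 in blue cones, highest in blue cone library 3. *Mmp2* (log2 difference -1.64, limma adjusted p = 0.00839) and, at low counts, *Tnr* (limma adjusted p = 0.0414) were higher in blue cones, and the *Tnr* call was lost without rod library 1 or 2 or blue cone library 1 or 2 (limma adjusted p = 0.0647 to 0.228) and in the 6 photoreceptor libraries alone (limma adjusted p = 0.26). Of 21 tested immediate early genes, which respond to activity and to handling of cells, 0 were higher in rods by limma, edgeR or DESeq2 or at an unadjusted p below 0.05. By limma 5 were higher in blue cones (23.8%, against 11.3% of all tested genes). *Egr1* had 225.1, 61.46 and 99.42 in rods and 3236, 2931 and 4758 in blue cones (log2 difference of -4.99 ± 0.77 SE, limma adjusted p = 0.000474), *Nr4a1* 89.26, 110.6 and 96.18 in rods and 1646, 2049 and 2283 in blue cones (log2 difference of -4.31 ± 0.49 SE, limma adjusted p = 2.98e-05) and *Dusp6* 10.67, 13.32 and 41.06 in rods and 387.3, 506.1 and 537.3 in blue cones (log2 difference of -4.63 ± 0.39 SE, limma adjusted p = 6.78e-07). *Egr3* (limma adjusted p = 1.89e-05) and *Npas4* (log2 difference -3.24, limma adjusted p = 0.00332) were called as well. *Fos* (636.5, 289.9 and 399.8 in rods against 1603, 1184 and 1300 in blue cones) and *Jun* (577.3, 473.3 and 569.5 in rods against 1135, 1164 and 1448 in blue cones) did not pass (-1.69 and -1.21). Neither overlapped between populations, like 60.9% of all tested genes.

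The largest fitted differences among genes with at least 100 normalized counts in the higher population included several genes outside these lists. The gene farthest toward rods was *Abca13*, an ABC transporter, with 1289, 1438 and 1359 normalized counts in rods and 2.256, 0 and 1.48 in blue cones (log2 difference of 9.41 ± 0.58 SE, limma adjusted p = 2.45e-09). *Fam160a1* had 2673, 2446 and 2784 in rods and 3.008, 3.035 and 3.701 in blue cones (log2 difference of 9.28 ± 0.39 SE, limma adjusted p = 1.62e-11). *Sh2d1a*, known as an adaptor of lymphocyte receptors, had 2087, 2183 and 2239 in rods and 7.521, 1.518 and 2.22 in blue cones (log2 difference of 9.05 ± 0.62 SE, limma adjusted p = 1.05e-08). *Nipal1*, a magnesium transporter, had 647.1, 786.7 and 818.1 in rods and 0.7521, 1.518 and 0 in blue cones (limma adjusted p = 2.54e-07), and *Glt28d2* 597.7, 891.2 and 967.2 in rods and 0.7521, 1.518 and 2.22 in blue cones (log2 difference 8.37, limma adjusted p = 2.18e-09). Among the 12 largest were also *Cnga1*, *Kcnj14*, *Nr2e3*, *Gnat1*, *Hdc* and *Col4a3*. The 1 added before the logarithm makes the fitted change of genes with few reads in 1 population smaller than the ratio of counts.

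Toward blue cones, *Ece1*, the endothelin-converting enzyme, had 56.27, 60.44 and 75.65 normalized counts in rods and 16420, 15800 and 15570 in blue cones (log2 difference of -7.95 ± 0.13 SE, limma adjusted p = 2.7e-16). *Ccdc136* had 62.1, 78.88 and 103.7 in rods and 16900, 17990 and 22410 in blue cones (log2 difference of -7.87 ± 0.23 SE, limma adjusted p = 2.25e-13), and *Clca3* 48.51, 93.22 and 54.03 in rods and 12920, 14230 and 14270 in blue cones (log2 difference of -7.76 ± 0.60 SE, limma adjusted p = 6.72e-08). The means of these 3 genes differed by 248, 234 and 212 times, and the populations did not overlap, which the choice of these genes required. The proton channel gene *Otop3* had 36.87, 43.02 and 48.63 in rods and 9134, 10140 and 10780 in blue cones (log2 difference -7.84, limma adjusted p = 4.43e-09), *Wwc1* 15.52, 33.8 and 17.29 in rods and 5463, 5625 and 5764 in blue cones (log2 difference -8.00, limma adjusted p = 1.68e-07), and *Abcb4*, a phospholipid transporter, 7.762, 5.122 and 2.161 in rods and 1415, 1419 and 1121 in blue cones (log2 difference -7.89, limma adjusted p = 3.68e-11). Lower counts were found for *Pik3ap1* (834.8, 944 and 912.6 in blue cones, log2 difference -8.42, limma adjusted p = 6.88e-08), *Wscd2* (720.5, 884.8 and 907.4, log2 difference -8.38, limma adjusted p = 9.35e-07), the fatty acid receptor *Ffar4* (327.2, 343 and 498.9) and *Smpdl3a* (303.8, 436.3 and 406.3), each at 0 in at least 1 rod library. *Ffar4* and *Smpdl3a* had 2 reads each over the 3 rod libraries. *Tnc* and *Rxrg* are the other 2 of the 12.

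By number of reads, the 10 leading genes of rods took 20.02% to 23.55% of the reads of a rod library and the 10 leading genes of blue cones 14.32% to 14.88% of those of a blue cone library. The rod list included *Gnb1*, *Gnat1*, *Sag*, *Pde6b*, *Prph2*, *Pdc*, *Rom1* and 2 noncoding RNAs, *Malat1* and the ribosomal precursor *Rn45s*. The blue cone list shared *Sag* and *Malat1* with it and held *Opn1sw*, *Atp1b2*, *Gnb3*, *Rbp3*, *Gnat2*, *Map1b*, *Plekhb1* and *Arr3*. Per kilobase of exon, a level rather than a read count, *Gnb1*, *Gnat1* and *Pde6b* had means of 421000, 218000 and 97700 normalized counts in rods, and *Opn1sw*, *Gnb3* and *Gnat2* had 507000, 117000 and 84300 in blue cones. *Malat1* had 372700, 408400 and 408300 normalized counts in rods and 213500, 150800 and 78460 in blue cones (log2 difference of 1.54 ± 0.46 SE, limma adjusted p = 0.538), with blue cone library 3 lowest. *Rn45s* had 124800, 183900 and 138600 in rods and 49540, 45990 and 66630 in blue cones (log2 difference 1.46, limma adjusted p = 0.231). *Plekhb1* was higher in blue cones (log2 difference -1.72, limma adjusted p = 0.00481), and *Map1b*, a microtubule protein of neurons, was not called (log2 difference -0.91, limma adjusted p = 1).

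Markers of other retinal cells were read in the same libraries. Bipolar markers were called in 4 of 12 genes, 3 higher in blue cones and 1 in rods (25% and 8.33%, against 11.3% and 4.63% of all tested genes). *Cabp5*, a calcium-binding protein of bipolar cells, had 234.8, 232.5 and 356.6 normalized counts in rods and 25240, 29460 and 27000 in blue cones (log2 difference of -6.65 ± 0.17 SE, limma adjusted p = 3.3e-14), and the blue cone mean was 71.2% of that in Pan-BC. The 10 markers other than *Cabp5* and *Prkca* stood at 0.284% to 5.44% of their Pan-BC level in blue cones and at 0.101% to 0.842% in rods. Of these, *Grik1* was higher in blue cones (log2 difference -3.17, limma adjusted p = 0.000912), at 5.44% of Pan-BC, and its call was lost in the 6 photoreceptor libraries alone (limma adjusted p = 0.0897). *Prkca*, the marker of rod bipolar cells, was higher in rods (978, 1085 and 997.4 in rods against 194, 180.6 and 114 in blue cones, log2 difference 2.67, limma adjusted p = 0.011), a call lost without blue cone library 3 (limma adjusted p = 0.0541). *Nrxn3*, *Elfn2*, *Cplx3* and *Lhx4*, named above, also had high counts in Pan-BC, with means of 17470, 1175, 48310 and 5673. Their blue cone means were 8274, 459.2, 25520 and 537.1, and the source of these reads was not tested.

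Markers of Müller glia were called in 2 of 11 tested genes, both higher in blue cones (18.2%, against 11.3% of all tested genes). Clusterin, *Clu*, had 750, 1424 and 1267 normalized counts in rods and 11760, 14580 and 12920 in blue cones (log2 difference of -3.56 ± 0.21 SE, limma adjusted p = 2.66e-08), and *Apoe* 217.3, 232.5 and 388 in rods and 1176, 1512 and 2602 in blue cones (log2 difference of -2.62 ± 0.33 SE, limma adjusted p = 0.000875). The defining glial genes *Rlbp1* (212.5, 236.6 and 355.5 in rods and 176.7, 327.1 and 125.8 in blue cones), *Glul* (341.5, 435.4 and 413.9 in rods and 272.3, 363.5 and 290.9 in blue cones) and *Slc1a3* (161.1, 170 and 271.2 in rods and 94.76, 123.7 and 90.3 in blue cones) did not pass. Of 6 tested amacrine markers with a read in the photoreceptor libraries, 0 were called by limma, edgeR or DESeq2 or had an unadjusted p below 0.05, and *Slc32a1* and *Chat* had no read in any of the 6 libraries. Ganglion cell markers were called in 2 of 9 tested genes with a read, both higher in blue cones, as were 11.3% of all tested genes. Both encode transcription factors: *Pou4f1* (2.911, 2.049 and 0 in rods against 157.2, 113.8 and 115.5 in blue cones, log2 difference -5.81, limma adjusted p = 1.34e-05) and *Isl2*, whose call was lost with DESeq2 (adjusted p = 0.13). *Pou4f2* and *Thy1* had no read. *Ndrg1* of the horizontal cell list was higher in rods (4519, 4274 and 4417 in rods against 248.2, 258.8 and 185.8 in blue cones, log2 difference 4.26, limma adjusted p = 2.15e-11), and *Lhx1* of that list had no read in rods. *Pecam1* of the endothelial list was higher in rods (194, 94.24 and 92.94 in rods against 3.761, 14.42 and 8.142 in blue cones, log2 difference 3.78, limma adjusted p = 0.000182), while *Kdr* had 23.29, 56.34 and 29.18 in rods and 29.33, 39.46 and 26.65 in blue cones. *Tyrp1* of the pigment epithelium list was higher in blue cones (log2 difference -4.24, limma adjusted p = 0.0118), a call lost without rod library 2 (limma adjusted p = 0.0691), and *Rpe65* was at or below 8.732 in each library. The 4 hemoglobin genes of the red blood cell list had no read in any library.

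Accessible chromatin gave a second readout in other libraries of the same 2 genotypes and age, 2 ATAC-seq libraries for each population with 9665199 and 10890548 counted reads in rods and 4572550 and 8058443 in blue cones. With 2 libraries each it was described and not tested. A promoter region was any of the authors' 200 bp regions whose centre lay in the 1000 bp before or the 100 bp after a start site, and 11852 of the tested genes had at least 1. Differences of rods minus blue cones were taken in each region on the mean log2 of the normalized ATAC-seq count plus 1 and averaged over a gene's promoter regions, whereas counts printed for a gene are sums over its regions. The difference had a median of 0.41 over all tested genes, so values are read against that shift. Genes with higher RNA in rods had a median of 0.698 (522 genes, 87.5% more open in rods, against 72.5% of all tested genes). Genes with higher RNA in blue cones had a median of -0.911 (1321 genes, 69.9% more open in blue cones, against 27.4%). The promoter median was 0.58, 0.69 and 1.61 for genes higher in rods by 2 to 4, 4 to 16 and over 16 times, and 0.24, -0.77 and -2.25 for genes higher in blue cones by the same steps. The share of promoters more open in rods did not rise with the steps of genes higher in rods, at 89.4%, 86% and 86.7%. At TSS-distal regions, each given to the gene with the nearest start, the median was 0.702 for genes higher in rods, -0.898 for genes higher in blue cones and -0.049 for all tested genes. By the same steps of fold, the distal medians were 0.64, 0.63 and 1.07 for genes higher in rods and -0.37, -0.76 and -1.6 for genes higher in blue cones.

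**Figure D5:**
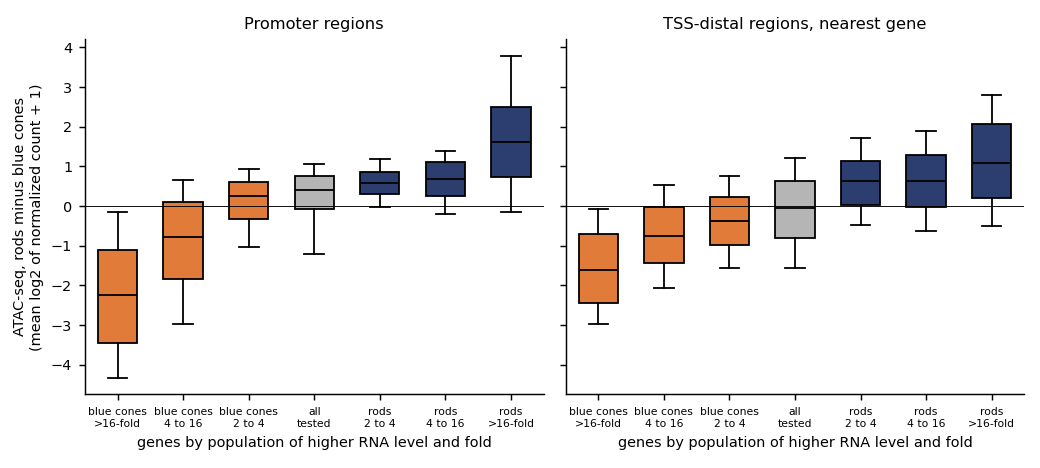
Difference in ATAC-seq signal between rods and blue cones (mean log2 of the normalized count plus 1, 2 libraries each) at promoter regions (left) and TSS-distal regions (right), for genes grouped by the population of higher RNA level and by fold. Boxes show quartiles with the median, whiskers the 10th and 90th percentiles, and the promoter median runs from -2.25 to 1.61.

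At the cascade genes each promoter was more open in the population with more RNA of that gene. All 11 rod forms were more open in rods (median 2.77, range 0.77 to 6.90) and all 10 cone forms with a region were more open in blue cones (median -2.98, range -6.20 to -0.70). Of all tested genes with a region, 72.5% were more open in rods and 27.4% in blue cones, with a median of 0.41. *Pde6b*, with 1 region and a difference of 6.9, had normalized ATAC-seq counts of 491 and 451 in rods and 1.3 and 5.78 in blue cones. *Gnat1*, with 2 regions and a mean difference of 6.29, had 924 and 865 in rods and 7.77 and 5.06 in blue cones. The promoter of *Slc24a2* had 0.779 and 1.36 in rods and 135 and 167 in blue cones, and that of *Opn1sw* 10.9 and 6.1 in rods and 242 and 221 in blue cones. The rod forms whose RNA was not called were also more open in rods, with *Gngt1* at 230 and 239 in rods and 82.9 and 93.2 in blue cones, *Pde6g* at 501 and 482 in rods and 142 and 134 in blue cones and *Sag* at 536 and 523 in rods and 332 and 288 in blue cones. Their differences of 1.40, 1.83 and 0.77 were among the smaller ones of the list. Among other genes, *Hdc* (225 and 295 in rods and 7.77 and 5.78 in blue cones), *Kcnj14* (498 and 481 in rods and 28.5 and 20.2 in blue cones) and *Nr2e3* (489 and 475 in rods and 24.6 and 33.2 in blue cones) were open in rods, and *Pou4f1* (3.89 and 2.71 in rods and 145 and 86 in blue cones), *Lhx4* (5.45 and 8.13 in rods and 155 and 176 in blue cones) and *Mtnr1a* (20.2 and 16.3 in rods and 193 and 157 in blue cones) in blue cones. The promoters of *Tnc* (1.56 and 0 in rods and 0 and 4.34 in blue cones) and *Egr1* (1150 and 1150 in rods and 1020 and 921 in blue cones) had little difference in accessibility beside their RNA differences of -8.89 and -4.99.

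The promoters of 8 called cascade and marker genes are shown because they had the largest mean accessibility differences in each direction among those with a RefSeq promoter window (GRCm38.p6). Each line gives the 200 bases before the start, 5′ to 3′ on the strand of the gene. Capitals mark matches, on either strand, to TGCTGA (the half-site of MAF family factors such as NRL), TAATCC (bound by CRX and other K50 homeodomain factors) or AGGTCA (the nuclear receptor half-site). The first 4 were more open in rods and the last 4 in blue cones.
*Pde6b* (chr5:108388173-108388372, plus strand): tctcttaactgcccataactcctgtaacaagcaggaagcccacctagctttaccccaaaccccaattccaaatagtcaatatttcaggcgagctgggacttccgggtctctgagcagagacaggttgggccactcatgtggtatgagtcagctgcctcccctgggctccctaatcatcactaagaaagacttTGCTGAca
*Nr2e3* (chr9:59950080-59950279, minus strand): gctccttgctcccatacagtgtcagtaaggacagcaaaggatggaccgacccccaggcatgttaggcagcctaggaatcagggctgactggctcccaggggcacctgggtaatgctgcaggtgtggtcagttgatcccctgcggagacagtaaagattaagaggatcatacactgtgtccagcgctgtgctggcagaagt
*Cnga1* (chr5:72642753-72642952, minus strand): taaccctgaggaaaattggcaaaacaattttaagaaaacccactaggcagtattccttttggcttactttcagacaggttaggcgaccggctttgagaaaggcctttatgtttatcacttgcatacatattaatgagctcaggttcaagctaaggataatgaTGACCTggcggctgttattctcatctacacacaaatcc
*Slc24a1* (chr9:64951621-64951820, minus strand): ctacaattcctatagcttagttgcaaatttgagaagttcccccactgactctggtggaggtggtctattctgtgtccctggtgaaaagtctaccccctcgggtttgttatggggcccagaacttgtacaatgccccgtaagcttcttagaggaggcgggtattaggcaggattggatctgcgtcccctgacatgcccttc
*Slc24a2* (chr4:87230541-87230740, minus strand): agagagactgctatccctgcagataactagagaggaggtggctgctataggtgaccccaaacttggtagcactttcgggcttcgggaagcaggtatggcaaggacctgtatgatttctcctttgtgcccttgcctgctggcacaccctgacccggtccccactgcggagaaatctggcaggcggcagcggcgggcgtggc
*Opn1sw* (chr6:29380514-29380713, minus strand): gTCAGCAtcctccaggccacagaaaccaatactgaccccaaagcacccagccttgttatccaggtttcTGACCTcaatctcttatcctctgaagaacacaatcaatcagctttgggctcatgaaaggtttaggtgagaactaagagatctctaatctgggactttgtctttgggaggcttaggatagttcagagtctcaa
*Opn1mw* (chrX:74127266-74127465, plus strand): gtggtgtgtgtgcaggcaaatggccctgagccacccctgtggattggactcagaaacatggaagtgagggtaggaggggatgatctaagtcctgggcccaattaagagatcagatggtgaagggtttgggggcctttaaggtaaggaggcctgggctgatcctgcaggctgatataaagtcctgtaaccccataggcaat
*Pde6h* (chr6:136954323-136954522, plus strand): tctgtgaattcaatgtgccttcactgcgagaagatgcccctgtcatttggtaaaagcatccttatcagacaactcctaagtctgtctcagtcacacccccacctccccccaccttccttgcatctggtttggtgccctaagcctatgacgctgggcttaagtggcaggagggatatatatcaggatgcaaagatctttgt

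In these stretches TGCTGA stood 8 bases before the start of *Pde6b*, the reverse complement of AGGTCA began 38 bases before that of *Cnga1*, and *Opn1sw* held the reverse complements of TGCTGA and AGGTCA, beginning 199 and 132 bases before its start. The other 5 held no exact match, which says only that these letters are not in this window. In whole windows from 250 bases before to 50 after a start, TAATCC or its reverse complement lay in 8.1% of the 630 windows of genes higher in rods, 6.41% of the 1608 of genes higher in blue cones and 5.91% of the 14020 of tested genes. TGCTGA lay in 14.8%, 17.5% and 15.7%, and AGGTCA in 13.3%, 13% and 12.8%. Over all 32851 promoter windows the shares were 7.06%, 19.5% and 16.3%. The called genes were thus near the background for all 3 motifs at this distance. Among the cascade genes with a window, TAATCC was found at 4 of 7 rod forms (*Cnga1*, *Cngb1*, *Gngt1* and *Sag*) and at 1 of 7 cone forms (*Gnat2*). TGCTGA was found at the rod forms *Pde6b* and *Sag* and the cone form *Opn1sw*. AGGTCA was found at the rod forms *Cnga1*, *Gnb1* and *Sag* and the cone form *Opn1sw*. The rod forms had 7 windows and the cone forms 9, and these counts were not tested.

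Because the knockout allele also carries the DNA around it, the position of called genes was examined. *Nrl* lies at chr14:55518978-55524981 in GRCm38, on the minus strand. Of 47 other tested genes within 1 Mb of *Nrl*, 7 were called (14.9%), near the 15.9% of all placed genes, and the share was 18.8% of 64 genes at 1 to 5 Mb. Calls within 1 Mb were not evenly spread. *Cpne6*, *Pck2*, *Psme1*, *Emc9* and *Ipo4*, all higher in blue cones, lay 0.008, 0.023, 0.058, 0.061 and 0.109 Mb from *Nrl*. *Slc22a17* and *4930579G18Rik* lay 0.612 and 0.869 Mb away. Genes not called, such as *Lrrc16b* and *Dhrs4* at 0.023 and 0.037 Mb, also lay close to *Nrl*, and the spacing was not tested. The nearest called gene was *Cpne6*, a calcium-dependent membrane-binding protein, 0.008 Mb away, with 26.2, 13.32 and 30.26 normalized counts in rods and 424.2, 343.7 and 293.1 in blue cones (log2 difference of -3.93 ± 0.30 SE, limma adjusted p = 3.54e-07). *Psme1*, a proteasome activator subunit, had 3.881, 7.171 and 17.29 in rods and 109.1, 122.2 and 151.7 in blue cones (log2 difference of -3.82 ± 0.31 SE, limma adjusted p = 1.01e-06). *Emc9* (log2 difference -2.40, limma adjusted p = 2.77e-06), *Slc22a17* (log2 difference -2.30, limma adjusted p = 8.34e-07), *Ipo4* (log2 difference -1.66, limma adjusted p = 9.78e-05) and *Pck2* (log2 difference -1.58, limma adjusted p = 0.00358) were higher in blue cones, and *4930579G18Rik* was higher in rods (log2 difference 2.04, limma adjusted p = 0.0308), a call lost without rod library 1 or 2 or blue cone library 2 or 3 (limma adjusted p = 0.0695 to 0.104). Effects of linked DNA and of cell type at these genes cannot be told apart. By chromosome the share of tested genes called ran from 12.8% (chromosome 8) to 20.5% (chromosome 6) among the autosomes and was 18.5% on chromosome X. The X chromosome had the smallest share of genes higher in rods of any chromosome but Y, 2.44% of 491, against 16.1% higher in blue cones, and the lowest median log2 fold change, -0.26.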

How the data were processed

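RNA-seq libraries of 3 rod and 3 *Nrl*-/- samples were analysed within a table of 15 libraries. Per the study's methods and the labels, the authors aligned reads with STAR (2.7.0d) to GRCm38/mm10 and took gene counts over the RefSeq annotation from HTSeq (listed as 1.9). They deposited signal values, that is, counts divided by 1 size factor per library. ATAC-seq signal values in regions were deposited in the same form. Of 230384 RNA values above 0, 100.0% were whole reads within 0.01 of a read after division by the step of their library.

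Genes were kept by edgeR's filterByExpr (4.0.16) on recovered reads. The main test was limma (3.58.1) treat with trend on log2(normalized count + 1), against a log2 fold change of 1, with 1 level per population and all 15 libraries in 1 model, without a replicate block. P-values were adjusted by Benjamini-Hochberg over 14024 genes and called below 0.05. On simulated counts for 14024 genes of this comparison, 75 of 100 genes changed 4-fold, 100 of 100 changed 16-fold and 0 of 13824 unchanged genes were called. The changed genes were drawn only from genes above a minimum mean count, so these shares do not cover genes with low counts. Alternatives were other scalings, pseudocounts of 0.5 and 5, no filter, the 6 photoreceptor libraries alone, edgeR glmTreat and DESeq2 (1.42.0) on recovered reads, a test against 0, a replicate block and leaving out each library.

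The members and gene lists were chosen with earlier results of these data known, and lists are described by counts and medians, without a test. Genes named in the text were all members of the marker and light cascade lists, up to 5 called members per direction of each other list with the largest change, the 12 largest changes per direction with a mean of at least 100 and no overlap of libraries, the 10 highest genes of each population and called genes within 1 Mb of *Nrl*. Some genes that this rule chose are not reported here. Genes that did not pass were named beside them as relatives or defining markers, chosen after their values were seen. Of 24062 names, 23823 matched the annotation, and 25 had the form of dates and were left as given. Of the 158 genes chosen by the rule, 12 shared over 10% of their exon bases with another gene, so that reads may be split or shared: *Pde6b*, *Gngt2*, *Gnb5*, *Samd11*, *Slc16a3*, *Acsl3*, *Suv39h2*, *Dbp*, *Tnc*, *Mmp2*, *Dusp6* and *4930579G18Rik*.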

Additional observations from a re-analysis of the deposited data

How the results depend on the processing

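The direction of both counts, with more genes higher in blue cones than in rods, held in all 16 alternatives, which called 481 to 881 genes in rods and 1152 to 1858 in blue cones apart from the test against a fold change of 0. That test called 8068 genes, 3810 higher in rods and 4258 in blue cones. Leaving out 1 library gave 2007 to 2361 genes in all, 552 to 732 in rods and 1455 to 1629 in blue cones. The 6 photoreceptor libraries alone gave 590 and 1267, and the same libraries with a replicate block 481 and 1152. Deviations of same-numbered libraries correlated at 0.081, 0.029 and 0.044, and those of differently numbered libraries at -0.081 to 0.035. Rod libraries 1 and 3 correlated best with the blue cone library of the same number, and rod library 2 with blue cone library 3. Correlations this small over 3 libraries per population cannot show whether the replicate numbers pair the samples. edgeR called 881 and 1858 and DESeq2 634 and 1511, and scaling to the library total 540 and 1628. With DESeq2, 13 genes had no adjusted p. Of the genes named by the rule, *Unc119* changed sign, from 0.14 to -0.08 without blue cone library 1 (up to 0.4 without blue cone library 3), and it was not called in either fit. The calls of *Dnmt3b*, *Tnr*, *Cdhr1*, *Slc16a3*, *Suv39h2*, *Cd36* and *4930579G18Rik* were each lost under several settings, and pseudocount 0.5 changed no call among the named genes. The causes were not tested.

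The promoter medians changed little. For genes higher in rods the values without 1 ATAC-seq library were 0.676 to 0.754, and for genes higher in blue cones -0.911 to -0.865. A pseudocount of 5 gave -0.726 for the latter. TSS-distal regions, added after the data were seen, kept both directions. Low counts limit genes such as *Onecut2*, *Isl2* and *Tnr*, whose values rest on few reads.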
